A study of Arabidopsis thaliana with 48 samples.

Results

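The response of Arabidopsis thaliana seedlings labelled rap2.3 to salt, excess light and heat given together was taken from 6 of the 48 libraries of the series. They were 3 libraries of the triple stress (S+EL+HS) and 3 of the control condition (CT), chosen by genotype and treatment labels and not by any measured value. The series holds 2 genotypes, wild-type Col-0 (WT) and rap2.3, which is 1 Col-0 line carrying a T-DNA insertion (rap2.3_1), each under 8 treatments with 3 replicates. CT seedlings were kept at 21 °C and 50 µmol m-2 s-1 on medium without added NaCl. S+EL+HS seedlings had grown for 6 days on medium with 50 mM NaCl and then received 700 µmol m-2 s-1 and 33 °C for 1.5 hours, so salt acted through growth while light and heat were acute. The other rap2.3 groups used here were S, EL, HS, EL+HS, S+EL and S+HS, with the same doses of each factor. Many whole seedlings were pooled for each library. In such bulk RNA, fewer cells of a type and less RNA per cell cannot be told apart.

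RAP2.3 is an ethylene response factor of group VII, a family of transcription factors whose protein stability depends on oxygen. Plants meet heat mainly through heat shock transcription factors, which bind heat shock elements in promoters and switch on chaperones that hold or refold damaged proteins. Salt acts partly through the hormone abscisic acid, whose signal is relayed by SnRK2 kinases and ABF factors, restrained by clade A protein phosphatases of type 2C, and ends in dehydrins and solutes that protect dry cells. Excess light overloads the photosystems, and chloroplasts answer with photoprotective proteins, scavengers of reactive oxygen and smaller antennae.

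The targeted gene was measured first. RAP2.3, listed by RefSeq as EBP (AT3G16770), was at 309.7, 355 and 283 FPKM (fragments scaled by transcript length and by library size) in replicates 1, 2 and 3 of CT labelled rap2.3, against 424, 372 and 399.9 FPKM under S+EL+HS. In WT it ranged from 53.0 to 64.6 FPKM in CT and from 62.0 to 86.1 FPKM under S+EL+HS. Every library labelled rap2.3 in these groups was therefore above every WT library, which goes against a loss of the transcript. The samples are called libraries labelled rap2.3 for that reason, and where the insertion lies relative to the counted sequence was not given in the sources used here. Between CT and S+EL+HS the RAP2.3 levels did not overlap, and the log2 difference of 0.34 (SE 0.19, limma adjusted p = 0.1673) did not pass the threshold of 0.05, although it did when only CT and S+EL+HS were fitted (adjusted p = 0.019). Log2 differences here and in what follows are on the log2(FPKM + 1) scale. They are from limma fitted over the 24 libraries labelled rap2.3 unless another fit is named. Those given for WT are from the same model fitted over the WT libraries, and differences in response between genotypes from all 48 libraries. Values given in threes are replicates 1, 2 and 3.

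The 6 libraries were alike in depth-normalised content. Their FPKM summed to between 779885 and 822875 and between 22191 and 22552 genes were above 0. Pearson's r of log2(FPKM + 1) was 0.9836 to 0.9853 within CT, 0.9837 to 0.9852 within S+EL+HS, and 0.9436 to 0.9541 between them. Triple-stress replicate 2 was the highest or lowest of the stressed libraries by a wide margin in some genes named in what follows. The SD of each library's deviation from its group mean was 0.228 to 0.263 on the log2 scale in CT and 0.257 to 0.267 under S+EL+HS.

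Triple stress changed the level of 8799 of 20592 genes tested (42.7%), with 4642 higher (22.5%) and 4157 lower (20.2%). Differences of at least 2-fold were found in 1725 of the higher genes (8.38% of those tested) and 1069 of the lower (5.19%). The median difference over all genes tested was 0.01. The CT and S+EL+HS libraries did not overlap for 11295 genes (54.9%), 5823 higher (28.3%) and 5472 lower (26.6%). With so large a share called, the count for each group of genes is read against these percentages. A list whose shares lie near them is not set apart from all genes. The 12 largest increases were all genes of small heat shock proteins but one, AT3G07365, a non-coding RNA that overlaps HSP17.4 on the opposite strand. The strand used for counting is not stated, so reads of this RNA and of HSP17.4 cannot be told apart. The same holds for HSP101, ABI1, ABF1, COR15B, GolS1, P5CS1, KT1, LHCA4, PRK, CHLM, POR C, OHP, SEP2, CAT2, TT4, EXPA7 and ADH1, each of which overlaps a gene on the opposite strand, while HSA32 and SIG3 overlap one on their own strand.

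**Figure D1:**
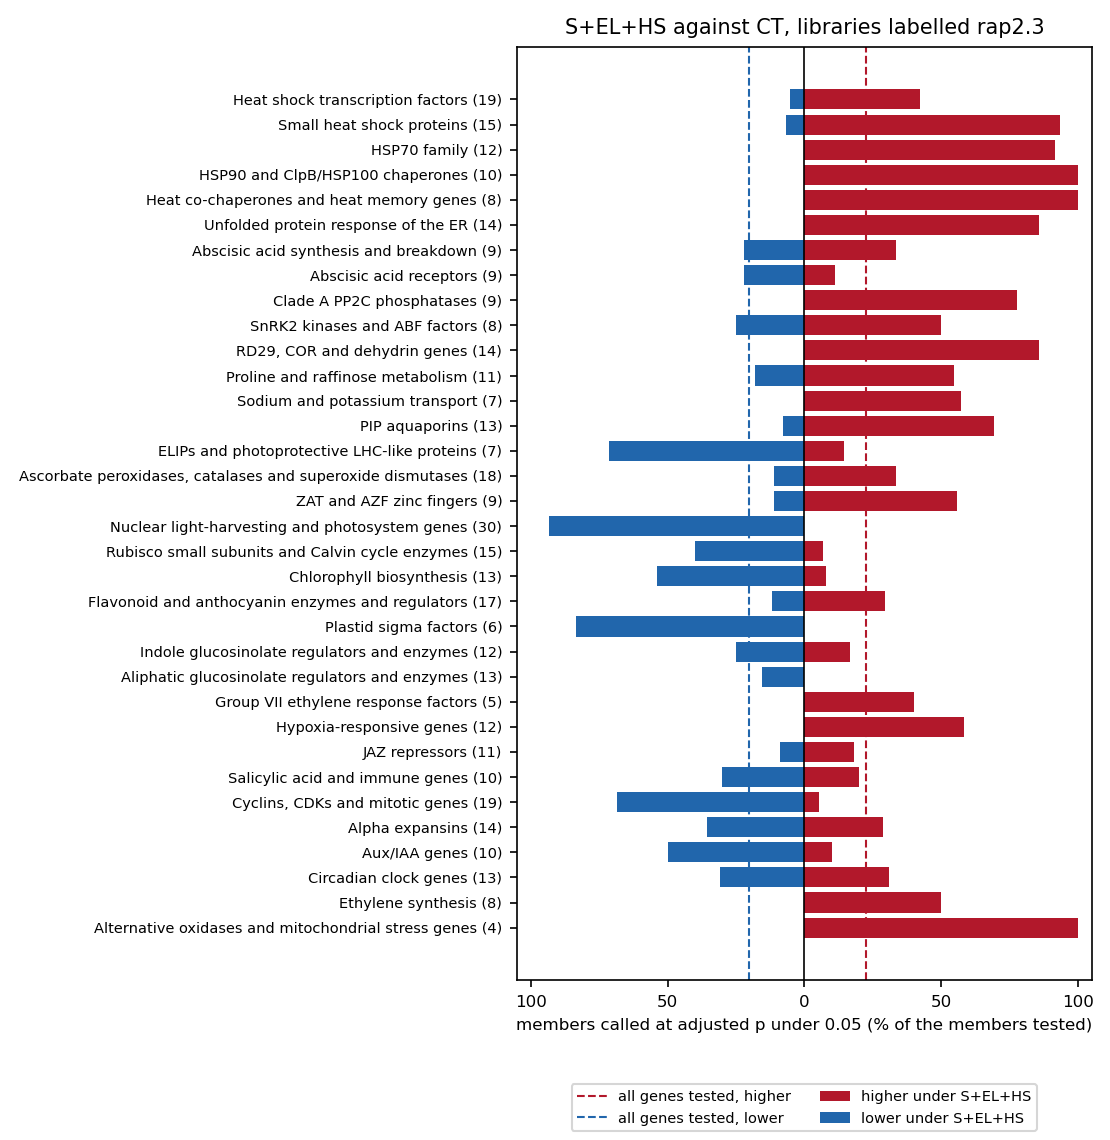
Percentage of the tested members of 34 gene lists that were higher (red, to the right) or lower (blue, to the left) under S+EL+HS than under CT in libraries labelled rap2.3, with the number of members tested in brackets. Dashed lines mark the shares over all 20592 genes tested, 22.5% higher and 20.2% lower. Heat chaperone lists reach 91.7% to 100% higher, while 93.3% of the light-harvesting and photosystem genes were lower.

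Promoter windows of 3 small heat shock protein genes are shown first because heat shock transcription factors bind short repeated GAA and TTC units. They are the genes with the largest increases among those whose window holds a match to such units and overlaps no other gene, and not the most induced genes of the list. HSP17.6II, ATHSP22.0, HSP23.6-MITO and HSP18.2 rose more than all 3 and had no match. AT2G29500 and AT1G07400 rose more than AT1G52560 and had no match. AT1G53540, with the largest increase, had 2 matches in a window that overlaps another gene. HSP17.6A, which also rose more than AT1G52560, had 1 match in such a window. Windows are the 250 bases before the RefSeq gene start (assembly TAIR10.1), written 5′ to 3′ on the gene's strand. Capitals mark matches to a pair of units facing each other, GAANNTTC or TTCNNGAA, which read the same on both strands. HSP21 (AT4G27670, minus strand) lies behind chr4:13819972-13820221, HSP17.4 (AT3G46230, minus strand) behind chr3:16984868-16985117, and AT1G52560 (minus strand) behind chr1:19575867-19576116.
HSP21: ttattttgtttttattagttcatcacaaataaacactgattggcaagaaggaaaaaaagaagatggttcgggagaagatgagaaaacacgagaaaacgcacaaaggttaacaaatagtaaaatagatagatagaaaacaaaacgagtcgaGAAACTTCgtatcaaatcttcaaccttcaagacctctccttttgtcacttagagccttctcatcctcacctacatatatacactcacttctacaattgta
HSP17.4: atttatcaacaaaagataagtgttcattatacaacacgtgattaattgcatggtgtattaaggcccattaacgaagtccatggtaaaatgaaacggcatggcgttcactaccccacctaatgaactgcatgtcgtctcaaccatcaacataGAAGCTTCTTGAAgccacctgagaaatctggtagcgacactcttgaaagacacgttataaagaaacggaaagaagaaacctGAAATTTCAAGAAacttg
AT1G52560: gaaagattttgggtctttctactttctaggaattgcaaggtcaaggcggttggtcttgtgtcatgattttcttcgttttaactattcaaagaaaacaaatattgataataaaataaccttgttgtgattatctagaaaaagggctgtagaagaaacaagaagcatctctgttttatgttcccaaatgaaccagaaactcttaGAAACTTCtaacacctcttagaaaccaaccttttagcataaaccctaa
The HSP17.4 window holds 4 matches in 2 separate stretches, overlapping within each stretch, and the others hold 1 each. In all, 7 of the 15 small heat shock protein genes (46.7%) and 4 of 8 heat co-chaperone genes (50.0%) had such a match, against 15.8% of 19644 nuclear protein-coding genes tested, 16.7% of the genes that rose and 14.7% of those that fell. The longer form of 3 such units in a row, which contains the shorter one, stood in 2 of the 15 small heat shock protein windows and in 85 windows overall (0.433%). None of the 12 HSP70 family windows held a match to either form. The shorter form stood in 1 of 10 HSP90 and ClpB windows, a smaller share than over all genes tested. Among heat shock transcription factor genes it stood in 5 of 19 windows (26.3%). A match describes the letters in the window only.

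Small heat shock proteins, which bind unfolding proteins and keep them from clumping, showed the widest change. All 15 listed genes were tested, 14 rose and 1 fell, with a median log2 difference of 9.37. Their summed level went from 62.95 to 79.42 FPKM in the CT libraries to 29906 to 32943 FPKM under S+EL+HS. HSP18.2, a cytosolic class I member, was at 1.1, 2.18 and 1.52 FPKM in CT against 3255, 3818 and 3152 FPKM under S+EL+HS, a log2 difference of 10.37 (SE 1.23, adjusted p = 1.54e-06). All stressed libraries stood far above all control libraries. AT1G53540 (HSP17.6C) moved from 2.07, 1.35 and 0.791 to 5721, 4977 and 5060.0 FPKM, the largest change of the list at 11.13 (SE 1.16, adjusted p = 3.05e-07).

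Organelle members rose as well. HSP23.6-MITO, which acts in mitochondria, was at 0.778, 0.341 and 0 FPKM in CT against 2506, 2082 and 2273 FPKM under S+EL+HS. HSP21, which protects the plastid transcription machinery and photosystem II, was listed at 0 in all 3 CT libraries against 1226, 1167 and 1144 FPKM under S+EL+HS (adjusted p = 7.59e-07). A listed 0 can be a failed estimate, so no fold is given for it. The one member that fell was AT4G21870 (HSP15.4), from 39.8, 38.5 and 34.5 to 17, 17 and 16.8 FPKM, a log2 difference of -1.1 (SE 0.22, adjusted p = 4.98e-04). Class I genes are similar in sequence, and how shared reads were split between them is not stated.

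**Figure D2:**
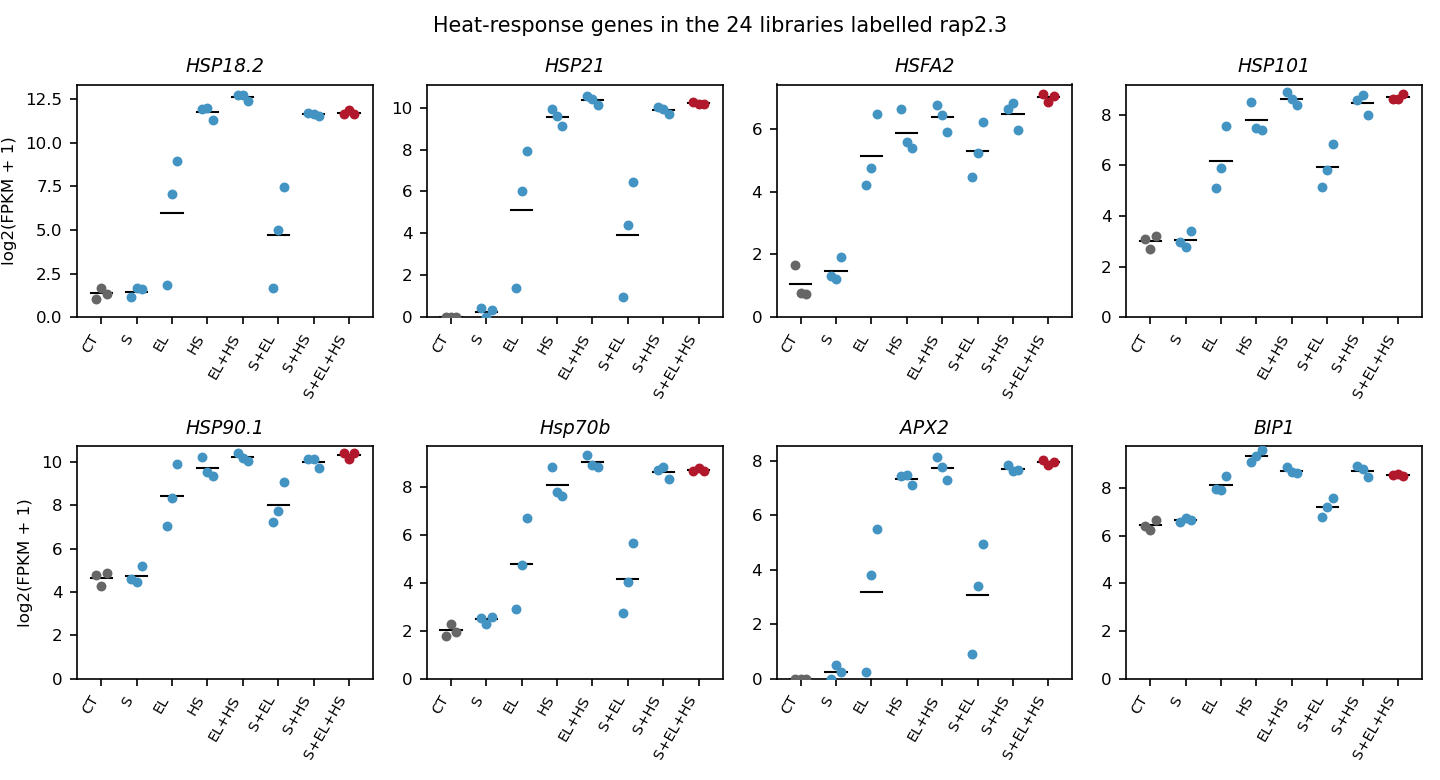
Levels of 8 heat-response genes on a log2(FPKM + 1) axis in the 24 libraries labelled rap2.3, by treatment; each point is 1 library and each bar the mean of 3, with CT in grey and S+EL+HS in red. The 3 S+EL+HS points of each gene lie close together. For most genes they lie near those of the other treatments with heat, while EL and S+EL points spread widely. For BIP1 the mean under S+EL+HS lies nearer to that under EL than to that under HS.

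Heat shock transcription factors were more mixed. Of 19 tested members, 8 rose and 1 fell, with a median difference of 0.45. HSFA2, which prolongs the heat response, went from 2.15, 0.721 and 0.660 FPKM to 135, 114 and 132 FPKM, a difference of 5.94 (SE 0.48, adjusted p = 1.45e-08). HSFB1, listed as HSF4, went from 16.3, 13.1 and 18.8 to 189.6, 188 and 219 FPKM (3.56, SE 0.29, adjusted p = 1.64e-08). The constitutive factors HSF1, HSF3 and HSFA1E did not pass the test, whereas HSFA1D did. AT-HSFA5 was the member that fell.

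Refolding chaperones rose almost as a class. In all, 11 of 12 HSP70 genes (median 1.69), all 10 HSP90 and ClpB genes (median 2.73) and all 8 co-chaperone and heat memory genes (median 5.13) were higher, and none was lower. HSP101, the ClpB-type disaggregase needed for acquired thermotolerance, was at 7.53, 5.52 and 8.21 FPKM in CT and 393, 393 and 454 FPKM under S+EL+HS, a difference of 5.69 (SE 0.46, adjusted p = 1.36e-08). HSP90.1, the heat-inducible cytosolic HSP90, moved from 26.8, 18.6 and 27.9 to 1338, 1112 and 1357 FPKM. Hsp70b moved from 2.49, 3.86 and 2.91 to 414, 452 and 411 FPKM. The groups were fully separated for each of these genes.

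Among the co-chaperones, AT5G48570 (ROF2), an immunophilin that modulates HSFA2, had the largest difference at 7.4 (SE 0.53, adjusted p = 3.42e-09), from 7.49, 7.56 and 10.5 to 1707, 1516 and 1561 FPKM. HSA32, which sustains heat memory, went from 6.85, 6.97 and 7.85 to 533, 493 and 509 FPKM. MBF1C, a coactivator of the heat response, was at 19.3, 16.6 and 14.4 FPKM in CT and 454, 266 and 548 FPKM under S+EL+HS, with replicate 2 the lowest of the stressed libraries (4.52, SE 0.64, adjusted p = 1.21e-05). It overlaps 3 genes on the opposite strand.

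The endoplasmic reticulum also changed its folding genes. Of 14 unfolded protein response genes, 12 rose and none fell (median 1.18). BIP1, the HSP70 of that compartment, went from a mean of 85.6 in CT to 373, 384 and 359 FPKM (2.12, SE 0.18, adjusted p = 3.42e-08), and its near-identical copy BIP2 may share reads with it. Calnexin CNX1 went from 100.4, 87.3 and 112 to 274, 300.3 and 245 FPKM. BIP3 and NAC103 did not pass the test, with BIP3 at 0.816, 0.656 and 0.756 FPKM in CT and 1.33, 0.823 and 0.609 FPKM under S+EL+HS.

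To see what heat added to salt and light, S+EL+HS was compared directly with S+EL. The log2 difference uses no CT library, while its SE and p-value come from the fit over all 24 libraries, CT included. In all, 3155 of 20592 genes differed (15.3%), 998 higher (4.85%) and 2157 lower (10.5%), with a median of -0.106 over all genes. The number called fell to 1239 without S+EL replicate 1, to 1901 without S+EL replicate 2 and to 1676 without S+EL+HS replicate 1. All 15 small heat shock protein genes were higher (median 3.79), with 8 of 12 HSP70, 8 of 10 HSP90 and ClpB, and 6 of 8 co-chaperone genes. HSP18.2 ranged from 2.2 to 172 FPKM over the S+EL libraries, and the difference was 7.03 (SE 1.23, adjusted p = 0.0012). Hsp70b ranged from 5.76 to 50.6 FPKM in S+EL (4.58, SE 0.66, adjusted p = 2.95e-04). HSP18.2 also ranged from 2.56 to 496 FPKM over the EL libraries. The summed level of the small heat shock protein genes was 432, 2569 and 6500.2 FPKM in replicates 1, 2 and 3 of S+EL, and 239, 1994 and 4466 FPKM in the WT replicates of the same numbers. Under EL it was 689, 4749 and 12796 FPKM, with 1067, 2137 and 8035 FPKM in WT, and under HS 25111, 19383 and 15877 FPKM, with 27319, 20064 and 12070 FPKM in WT. The same replicate number was therefore lowest and highest in both genotypes, and the order under HS was the reverse of that under EL. The part of the replicate number in the comparisons that use these groups was not tested beyond the fits with a replicate block. Such a block fits 1 shift per replicate number over all treatments, so it cannot absorb a reversed order.

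Adding salt to light and heat, or light to salt and heat, gave few chaperone calls. None of the 15 small heat shock protein genes passed the test against EL+HS (25.1% of all genes higher, 6.04% lower) or against S+HS (1.96% higher, 2.52% lower). So few of all genes were called against S+HS that an absence of calls among 15 genes does not set this list apart. HSP18.2 differed by -0.91 (SE 1.23, adjusted p = 0.5973) from EL+HS, where its mean was 6420.0 FPKM, and by 0.10 (SE 1.23, adjusted p = 0.9775) from S+HS, where its mean was 3167 FPKM. The SE of 1.23, shared with the widely spread EL and S+EL libraries, exceeds a 2-fold change. When only the EL+HS and S+EL+HS libraries were fitted, 4 small heat shock protein genes were higher and 2 lower, and 4 of 10 HSP90 and ClpB genes were higher.

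Dehydration genes mostly rose under triple stress, and some were lower than under salt with light. Of 14 RD29, COR and dehydrin genes, 12 were higher than in CT and none lower (median 2.09). KIN1, a small protein induced by cold and abscisic acid, went from 0.860, 0.288 and 1.64 to 78.7, 98.6 and 116 FPKM, a difference of 5.72 (SE 0.34, adjusted p = 3.51e-10). RD20, a calcium-binding caleosin, went from 2.15, 2.26 and 2.02 to 52.3, 64.1 and 68.7 FPKM (4.31, SE 0.37, adjusted p = 2.70e-08). LTI78 (RD29A) went from 8.13, 7.94 and 10.1 to 68.5, 83.1 and 83.3 FPKM (3.03, SE 0.40, adjusted p = 5.85e-06). In each case the lowest stressed library was several times the highest control.

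The abscisic acid response element core, ACGTGGC or ACGTGTC on either strand, was searched in the same windows because ABF factors bind it. It stood in 3 of the 14 dehydration windows (21.4%), in 10 of 30 photosystem windows (33.3%) and in 7.55% of all windows. LTI65 (RD29B, AT5G52300, plus strand, window chr5:21236771-21237020) held 3 matches, in capitals.
LTI65: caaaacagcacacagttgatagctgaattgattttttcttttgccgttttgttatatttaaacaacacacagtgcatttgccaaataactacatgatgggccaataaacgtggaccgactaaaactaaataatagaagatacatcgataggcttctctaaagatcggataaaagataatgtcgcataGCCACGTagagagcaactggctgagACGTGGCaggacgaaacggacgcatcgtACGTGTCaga
LTI65 went from 20.7, 14.3 and 14 FPKM in CT to 46.8, 42.4 and 51.8 FPKM under S+EL+HS, a smaller difference of 1.49 (SE 0.32, adjusted p = 9.94e-04). KIN1 and RD20, with the largest differences of the list, had no match in their windows.

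Against S+EL, 6 of the 14 dehydration genes were lower and none higher (median -0.64), with 10.5% of all genes lower. COR15A, a chloroplast stromal protein that protects membranes, was at 4.24, 0.678 and 1.09 FPKM in CT, at 18.5, 14.3 and 15.8 FPKM under S+EL+HS, and between 126 and 223 FPKM under S+EL. The difference from S+EL was -3.36 (SE 0.53, adjusted p = 5.20e-04), and no library of the groups overlapped. RD20 was at 170.0 to 309.7 FPKM under S+EL, above every triple-stress library (-1.78, SE 0.37, adjusted p = 0.0034). Against EL+HS, 9 of 14 were higher and none lower (median 0.94, with 0.231 over all genes and 25.1% of all genes higher). That count was 5 after rescaling the libraries by size factors, and also 5 without EL+HS replicate 2 or S+EL+HS replicate 3. Against S+HS, RD20 and COR15B were higher, RD20 by 2.01 (SE 0.37, adjusted p = 0.0028). In a fit of only the compared groups RD20 kept that difference with an adjusted p of 0.0633.

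**Figure D3:**
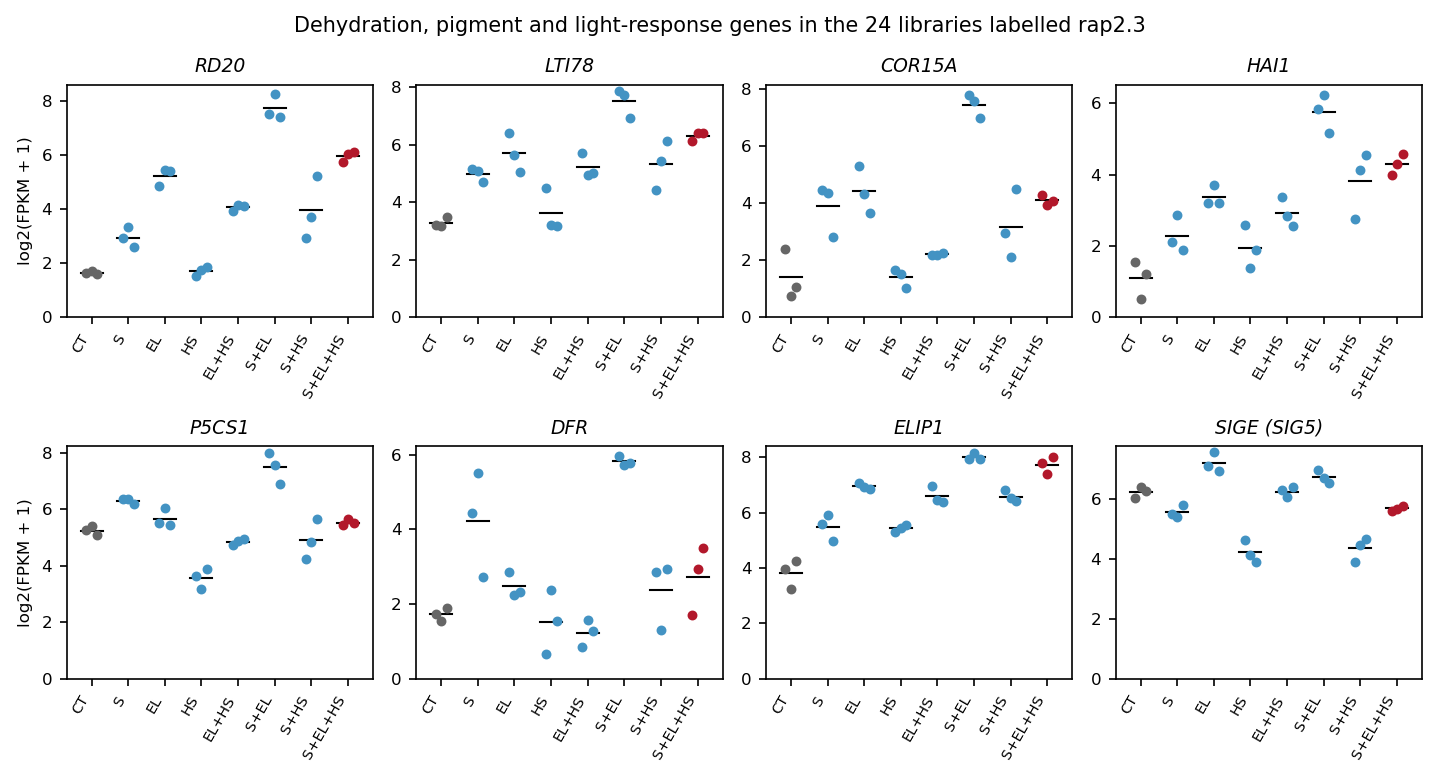
Levels of 8 dehydration, pigment and light-response genes on a log2(FPKM + 1) axis in the 24 libraries labelled rap2.3, by treatment; each point is 1 library and each bar the mean of 3, with CT in grey and S+EL+HS in red. RD20, LTI78, COR15A, HAI1, P5CS1 and DFR are highest under S+EL, and SIGE is lowest in HS and S+HS.

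Genes of abscisic acid signalling rose in part. Of 9 clade A phosphatase genes, which damp the signal and are induced by it, 7 rose and none fell (median 0.91). HAI1 went from 1.95, 0.434 and 1.34 to 14.9, 18.8 and 22.9 FPKM (3.19, SE 0.41, adjusted p = 4.06e-06), and it ranged from 34.8 to 74.5 FPKM under S+EL. ABI1 went from 25.3, 22.6 and 24.5 to 65.8, 97.2 and 71.0 FPKM. The call of PP2CA depended on single libraries. It was at 16.2, 19.1 and 23.9 FPKM in CT and 23.8, 73.6 and 29.6 FPKM under S+EL+HS, and its difference of 0.91 (adjusted p = 0.0474) became 0.431 (adjusted p = 0.324) without S+EL+HS replicate 2, 0.783 (0.144) without CT replicate 1 and 0.895 (0.0994) without CT replicate 2.

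Genes of synthesis and reception of the hormone were called in both directions, where 22.5% of all genes rose and 20.2% fell. With 9 genes counted in each, these lists are not set apart from all genes. NCED3, the step that limits abscisic acid synthesis under drought, went from 1.24, 1.86 and 1.22 to 3.73, 9.78 and 5.19 FPKM (1.49, SE 0.38, adjusted p = 0.0039). ABA1, the zeaxanthin epoxidase upstream of it, fell from 283, 313 and 275 to 160.2, 157 and 165 FPKM (-0.84, SE 0.14, adjusted p = 5.70e-05). Of 9 synthesis and breakdown genes tested 3 rose and 2 fell. Of 9 receptor genes 1 rose and 2 fell, with 1 falling without CT replicate 2 or 3 or S+EL+HS replicate 1 or 3. Among 8 SnRK2 and ABF genes 4 rose and 2, ABI5 and ABF1, fell, with 1 falling without CT replicate 1 or 2 or S+EL+HS replicate 2 or 3. ABI5 overlapped between the groups, at 4.16, 3.75 and 2.12 FPKM in CT and 2.41, 1.38 and 1.46 FPKM under S+EL+HS.

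Genes of protective solutes moved unevenly. GolS1, a galactinol synthase at the head of raffinose synthesis, went from 19.6, 17 and 21.7 to 1262, 1107 and 1238 FPKM (5.88, SE 0.60, adjusted p = 2.43e-07), and its lowest library under S+HS was at 982 FPKM. P5CS1, which makes proline, was at 37.3, 41.2 and 32.8 FPKM in CT and 42.1, 48.9 and 44.5 FPKM under S+EL+HS, which did not pass (0.28, SE 0.28, adjusted p = 0.4445). It was at 117 to 255 FPKM under S+EL, and the direct difference was -1.96 (SE 0.28, adjusted p = 2.87e-04). The gene of proline breakdown, PRODH1 (listed as ERD5), fell from 253, 228 and 212 to 60.8, 61.1 and 69.3 FPKM (-1.84, SE 0.24, adjusted p = 5.85e-06). Of 11 genes of both pathways, 6 rose and 2 fell.

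The calls of sodium and potassium transporters rested on single libraries. Of 7 tested genes 4 were higher, NHX1 and NHX2 of the vacuole, HKT1 of the xylem and KT1, while SOS1, SOS2 and SOS3 did not pass. The count was 2 without CT replicate 1 or S+EL+HS replicate 2, and 1 without CT replicate 2. HKT1 itself overlapped between groups, at 1.03, 1.1 and 2.73 FPKM in CT and 2.38, 3.21 and 4.06 FPKM under S+EL+HS.

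Water channels of the plasma membrane mostly rose, with 9 of 13 higher and 1 lower (median 0.90). RD28 (PIP2;3) went from 57.9, 52.3 and 70.4 to 837, 751 and 776 FPKM (3.70, SE 0.32, adjusted p = 3.06e-08), though it is nearly identical to PIP2B and reads may be shared. PIP2A went from 1028, 1003 and 1181 to 3553, 3156 and 3190.0 FPKM (1.62, SE 0.18, adjusted p = 6.52e-07). PIP2;8 fell from 11.9, 9.54 and 14.5 to 2.65, 3.43 and 2.52 FPKM (-1.74, SE 0.26, adjusted p = 2.28e-05).

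Light harvesting genes fell nearly as a class. Of 30 nuclear genes of the antennae and photosystems, 28 fell and none rose, with a median of -1.0. Their summed level was 97796 to 114472 FPKM in CT and 52197 to 55813 FPKM under S+EL+HS. LHCB2.3 fell most, from 767, 919 and 734 to 63.5, 91.0 and 68.1 FPKM (-3.44, SE 0.22, adjusted p = 1.00e-09), and it overlaps AT3G27700 on the opposite strand. CAB2, an antenna gene of photosystem II with near-identical copies, fell from 4006, 4478 and 3606 to 1132, 1047 and 1139 FPKM (-1.86, SE 0.12, adjusted p = 8.24e-10). LHCA4 of photosystem I fell from 5577, 6221 and 5314 to 2072, 2049 and 2048 FPKM (-1.47, SE 0.10, adjusted p = 1.89e-09). PSBO2 and the plastocyanin gene DRT112 did not pass.

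The photosystem genes were also lower than under EL+HS, in 28 of 30 cases (median -0.62 with 0.231 over all genes), and 30 of 30 were lower after rescaling. LHCA4 was at 3716 to 4078 FPKM under EL+HS, a difference of -0.93 (SE 0.10, adjusted p = 5.54e-06). Against S+HS, 5 of 30 were lower and none higher (median -0.21, with -0.097 over all genes), and 3 were lower after rescaling. Against S+EL, 11 were lower, with 10.5% of all genes lower. The count fell to 2 after rescaling and to 5 without S+EL replicate 1 or 2. It was 6 without S+EL+HS replicate 1 and 7 without S+EL+HS replicate 2.

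Carbon fixation genes were next examined. Of 15 rubisco small subunit and Calvin cycle genes, 6 fell and 1 rose (median -0.29). PRK, which regenerates the carbon dioxide acceptor, fell from 1074, 1148 and 1094 to 634, 561 and 580.2 FPKM (-0.90, SE 0.10, adjusted p = 1.25e-06). RBCS1A, the main small subunit gene, differed by -0.07 (SE 0.12, adjusted p = 0.6846). Chlorophyll synthesis genes fell in 7 of 13 cases and 1 rose (median -0.32): CHLM fell from 397, 409 and 379 to 190.0, 172 and 194 FPKM, and POR C rose from 101, 102 and 94.5 to 187, 149.5 and 169 FPKM.

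Photoprotective relatives of the antenna proteins were divided. ELIP1, which binds chlorophyll released in strong light, rose from 14.5, 8.39 and 17.9 to 220.3, 167 and 253 FPKM (3.91, SE 0.23, adjusted p = 3.77e-10). ELIP2 did not pass, at 33.1, 35.6 and 42.8 FPKM in CT and 35.4, 35 and 42.9 FPKM under S+EL+HS, although it reached 116 to 313 FPKM under S+EL (-2.31, SE 0.39, adjusted p = 8.62e-04). Of the 7 genes 5 fell, OHP, OHP2, SEP2, LIL3:1 and NPQ4, and 3 genes of the list fell without S+EL+HS replicate 2. NPQ4, the PSBS protein of energy dissipation, fell by little, from 1499, 1693 and 1588 to 1346, 1149 and 1325 FPKM.

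Plastid sigma factors direct the plastid's bacterial-type RNA polymerase to its promoters. Of 6 nuclear sigma factor genes 5 fell and none rose (median -0.5). SIG2 fell from 74.7, 72.4 and 68.7 to 44.9, 38.6 and 41.7 FPKM (-0.77, SE 0.08, adjusted p = 6.33e-07). SIGE (SIG5), the light-responsive member, fell from 64.7, 84.9 and 77.2 to 48, 50.7 and 54.2 FPKM (-0.55, SE 0.21, adjusted p = 0.0355). SIG3, listed as SIGC and named in the title of the series, was at 34, 33.8 and 31.8 FPKM in CT and 29.5, 29.2 and 28.4 FPKM under S+EL+HS. Its levels did not overlap, and the difference of -0.19 (SE 0.11, adjusted p = 0.1974) did not pass.

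Light added to salt and heat was read from the comparison with S+HS. S+EL+HS differed from S+HS in 922 of 20592 genes (4.48%), 403 higher (1.96%) and 519 lower (2.52%), with a median of -0.097. After rescaling, the split was 647 higher and 269 lower, and 394 genes were called without S+EL+HS replicate 1, 483 without S+EL+HS replicate 3, and 508, 553 and 551 without S+HS replicates 1, 2 and 3. SIGE was at 14.1 to 24.8 FPKM under S+HS, below every triple-stress library (1.34, SE 0.21, adjusted p = 6.08e-04), and SIG3 was at 18.6 to 20 FPKM (0.58, SE 0.11, adjusted p = 0.0055). CAT2, the peroxisomal catalase of photorespiration, was at 829 to 1043 FPKM under S+HS and 2086, 1897 and 1920 FPKM under S+EL+HS (1.04, SE 0.16, adjusted p = 5.85e-04). HEMA1, the first committed gene of chlorophyll synthesis, was at 128 to 156 FPKM and 249.7, 239 and 232 FPKM (0.74, SE 0.10, adjusted p = 1.91e-04).

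The largest differences from S+HS included genes outside the lists. LEA3, a late embryogenesis abundant protein, was at 3.29 to 7.72 FPKM under S+HS and 29.2, 43.7 and 35.8 FPKM under S+EL+HS (2.58, SE 0.32, adjusted p = 1.11e-04), still below its CT values of 54.4, 89.2 and 86.4 FPKM. AT2G27420, a cysteine proteinase gene, was at 0.751 to 2.62 FPKM and 14, 14.3 and 16.9 FPKM (2.63, SE 0.27, adjusted p = 1.56e-05). AT1G47395, listed by RefSeq as an uncharacterized protein, was lower. It was at 13.2 to 24.4 FPKM under S+HS and 3.20, 2.90 and 2.21 FPKM under S+EL+HS (-2.26, SE 0.24, adjusted p = 1.79e-05). MIR5642b, a microRNA precursor that overlaps a gene on its own strand, and the non-coding AT1G08713 completed the 4 largest increases. AT4G16983, AT1G04343 and AT1G47400 completed the 4 largest decreases.

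Scavengers of reactive oxygen were mixed. Of 18 peroxidase, catalase and superoxide dismutase genes, 6 rose and 2 fell (median 0.23). APX2, a cytosolic ascorbate peroxidase under heat shock factor control, was listed at 0 in all CT libraries against 263, 229.9 and 245 FPKM under S+EL+HS (adjusted p = 7.60e-07). APX1 rose from a mean of 716 to a mean of 1962 FPKM (1.46, SE 0.11, adjusted p = 4.32e-09). The thylakoid gene TAPX fell from 90.1, 92.5 and 82.7 to 50.5, 51.0 and 49.1 FPKM (-0.80, SE 0.09, adjusted p = 8.28e-07). Of 9 ZAT and AZF zinc finger genes, repressors of the early stress response, 5 rose and 1 fell, and 3 rose without CT replicate 2. Replicate 2 was the lowest stressed library for ZAT6, at 23.5, 14.9 and 31.5 FPKM against 5.68, 5.39 and 4.89 FPKM in CT.

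Mitochondrial retrograde genes, which mark respiratory stress, rose in all 4 cases (median 1.94). AT2G21640, a marker of oxidative stress, went from 7.10, 5.13 and 3.62 to 155, 131 and 151 FPKM (4.58, SE 0.44, adjusted p = 1.12e-07), and AOX1A, the alternative oxidase, from 52.0, 51.4 and 57.6 to 169, 197 and 174 FPKM (1.73, SE 0.14, adjusted p = 1.71e-08). All 4 were higher than under EL+HS as well (median 1.21), where 25.1% of all genes were higher (median 0.231). After rescaling, or without S+EL+HS replicate 2, 2 of the 4 were higher.

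Pigment genes were mixed against CT and lower than under salt with light. Of 17 flavonoid and anthocyanin genes, 5 were higher and 2 lower than in CT (median 0.64), and 3 were higher without CT replicate 2. PAP1, the MYB activator of anthocyanin synthesis, went from 0.206, 0.315 and 1.51 to 5.98, 7.17 and 5.73 FPKM (2.2, SE 0.52, adjusted p = 0.0021). MYBL2, a repressor of the pathway, fell from 137, 139 and 99.0 to 40.1, 34.2 and 35.7 FPKM (-1.73, SE 0.25, adjusted p = 1.53e-05). DFR, the first enzyme of the anthocyanin branch, did not pass, at 2.33, 1.93 and 2.72 FPKM in CT and 2.28, 6.73 and 10.3 FPKM under S+EL+HS. Under S+EL it stood at 51.3 to 61.5 FPKM, above every library of the triple stress (-3.10, SE 0.57, adjusted p = 0.0016).

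Against S+EL, 12 of the 17 pigment genes were lower and none higher (median -1.41), with 10.5% of all genes lower. TT4, the chalcone synthase at the entry of the pathway, was at 596 to 680.0 FPKM under S+EL and 234, 255 and 300.3 FPKM under S+EL+HS (-1.29, SE 0.30, adjusted p = 0.0072). UF3GT, an anthocyanin glycosyltransferase outside the list, was at 22.9 to 24.1 FPKM under S+EL and 0.761, 2.78 and 2.83 FPKM under S+EL+HS (-3.06, SE 0.42, adjusted p = 1.97e-04). Against EL+HS, 7 of the 17 were higher and 2 lower, with 25.1% of all genes higher and 6.04% lower. After rescaling, or without any 1 of the EL+HS replicates, 4 were higher, and 2 were higher without S+EL+HS replicate 2 or 3. Without EL+HS replicate 1, 1 gene was lower.

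**Figure D4:**
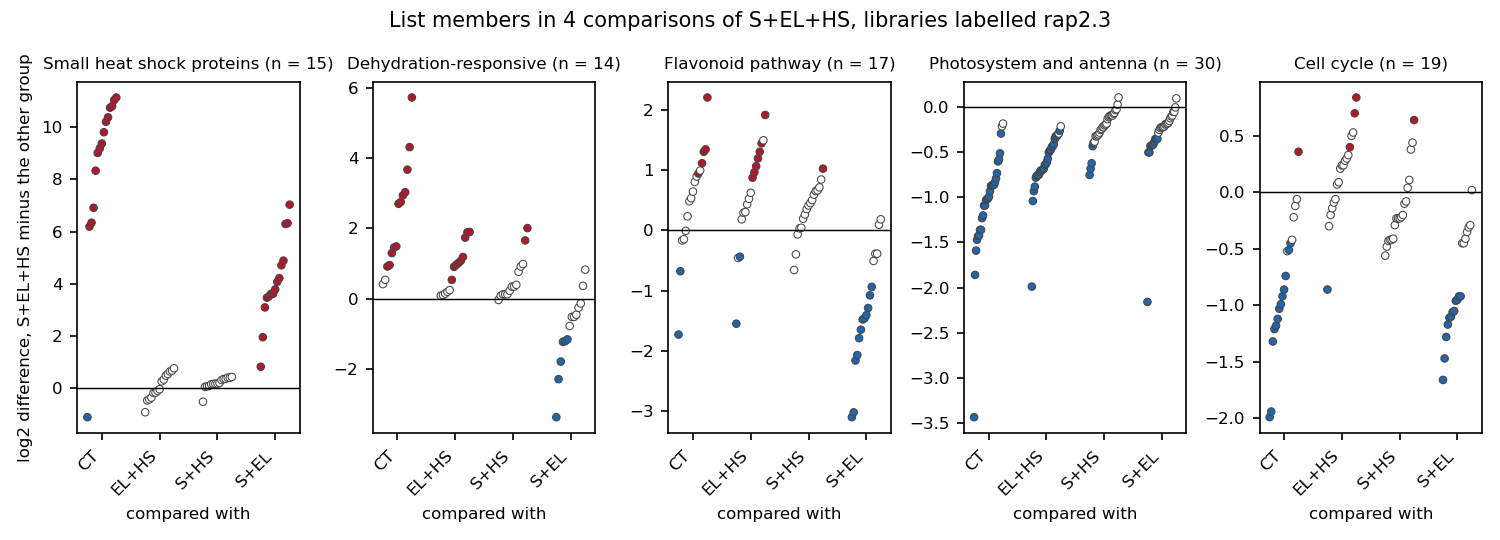
Log2 difference (log2(FPKM + 1) scale) of S+EL+HS from CT, EL+HS, S+HS and S+EL for each tested member of 5 lists, in libraries labelled rap2.3; filled points passed an adjusted p of 0.05 (red higher, blue lower) and open points did not. The 15 small heat shock protein genes pass against CT and S+EL and not against EL+HS or S+HS, 12 of 17 flavonoid genes are lower than under S+EL, and the photosystem genes lie below 0 against CT and EL+HS. Over all genes, 1.96% were higher and 2.52% lower than under S+HS, and 10.5% were lower than under S+EL.

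Salt added to light and heat was read from the comparison with EL+HS. S+EL+HS differed from EL+HS in 6417 of 20592 genes (31.2%), 5173 higher (25.1%) and 1244 lower (6.04%). All genes together were shifted by a median of 0.231, and after rescaling 2539 were higher and 2484 lower, so the split depends on the scale. Without S+EL+HS replicate 2, 3302 were higher. Genes of the sulfur response were among the 4 largest increases. LSU1, induced by low sulfur, was at 3.08 to 4.40 FPKM under EL+HS and 50.8, 49.3 and 79.2 FPKM under S+EL+HS (3.6, SE 0.35, adjusted p = 1.79e-06), and ATSDI1, a sulfur-deficiency protein, was at 3.34 to 5.16 FPKM and 51.6, 80.4 and 68.5 FPKM (3.61, SE 0.33, adjusted p = 1.11e-06).

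A defensin-like gene and a lipid-transfer gene had the largest increases. AT5G33355 was at 3.16 to 3.89 FPKM under EL+HS and 87.5, 113 and 97.5 FPKM under S+EL+HS (4.43, SE 0.38, adjusted p = 6.96e-07), and AT2G37870, of the lipid-transfer protein family, at 0.478 to 1.11 FPKM and 48.6, 27.9 and 51.5 FPKM (4.52, SE 0.44, adjusted p = 1.77e-06). AT5G33355 was low in EL and HS too, with highest libraries at 4.49 and 4.51 FPKM. In the other direction PDF1.3, a plant defensin, was at 6.08 to 41.1 FPKM under EL+HS and 0.495, 0 and 0 FPKM under S+EL+HS (-4.27, SE 0.85, adjusted p = 0.0012). AT4G16983, AT4G22520 and AT5G03975 completed the 4 largest decreases, and each overlaps a gene on the opposite strand.

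The largest decrease from CT was that of AT4G16983, at 179, 191 and 142 FPKM in CT and 1.48e-05, 0.474 and 2.57e-05 FPKM under S+EL+HS (-7.23, SE 1.54, adjusted p = 8.60e-04). It overlaps AT4G16980 on the opposite strand, as AT1G05253, DIR1, AT3G13061 and AT2G30766 overlap other genes. FRO6, a ferric reductase of green tissue without such an overlap, fell from 108, 127 and 106 to 8.19, 8.16 and 6.27 FPKM (-3.75, SE 0.28, adjusted p = 4.03e-09). The cysteine proteinase AT1G29090 fell from 13.5, 10.8 and 6.45 to 0.1, 0.14 and 0 FPKM (-3.33, SE 0.34, adjusted p = 2.17e-07). AT1G13650 (-3.42), AT3G62950 (-3.13), AT5G48490 (-3.04) and AT3G02120 (-3.04) were, with LHCB2.3, the others of the 12 largest decreases.

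Cell division genes mostly fell. Of 19 cyclin, CDK and mitotic genes, 13 fell and 1, CYCD3;3, rose (median -0.86). CYC1BAT, a B-type cyclin that drives mitosis, fell from 9.35, 7.49 and 10.8 to 1.22, 2.2 and 1.33 FPKM (-1.99, SE 0.21, adjusted p = 2.89e-07). CDC20.1, an activator of the mitotic ubiquitin ligase, fell from 12.5, 10.7 and 14 to 2.09, 3.13 and 2.32 FPKM (-1.94, SE 0.19, adjusted p = 1.18e-07). Of the 19, 12 were also lower than under S+EL, or 7 without S+EL+HS replicate 1, with 10.5% of all genes lower. Of 10 Aux/IAA genes tested 5 fell and 1 rose (median -0.72).

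Alpha expansins, which loosen cell walls, split by member, with 4 higher and 5 lower of 14. EXPA7 of root hairs rose from 2.60, 2.75 and 6.04 to 25.2, 32.5 and 37.5 FPKM (2.83, SE 0.33, adjusted p = 1.46e-06). EXPA10 rose from 21.1, 25.1 and 30.1 to 151, 152 and 104 FPKM. EXPA8 fell from 60.8, 66.0 and 71.2 to 12, 14.1 and 10.9 FPKM (-2.33, SE 0.22, adjusted p = 1.06e-07), and EXPA1 from 207, 224 and 219 to 48.3, 82.8 and 43.2 FPKM (-1.94, SE 0.22, adjusted p = 1.04e-06). Salt alone gave 16 to 26.3 FPKM of EXPA7 and 141 to 148 FPKM of EXPA10.

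The circadian pair LHY and CCA1, related morning factors, moved in opposite directions. LHY fell from 70.6, 65.1 and 80.3 to 14.6, 12.3 and 11.2 FPKM (-2.42, SE 0.19, adjusted p = 7.93e-09), and CCA1 rose from 64.0, 73.2 and 77.6 to 109, 117 and 107 FPKM (0.63, SE 0.16, adjusted p = 0.0043). Of 13 clock genes 4 rose and 4 fell (median 0.04). Sampling time of day is not given in the sources used here.

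Group VII factors act on hypoxia-responsive genes. Of the family, RAP2.2 and ERF71 (HRE2) rose, while RAP2.3, RAP2.12 and ERF73 did not pass. RAP2.2 went from 77.7, 72.3 and 71.2 to 104, 98.9 and 90.4 FPKM (0.40, SE 0.10, adjusted p = 0.0037). The call of ERF71, at 0, 0 and 0.639 FPKM in CT and 1.57, 2.39 and 0.811 FPKM under S+EL+HS, was lost without CT replicate 1 or 2 (adjusted p = 0.0511 each) or S+EL+HS replicate 2 (0.0662). Of 12 hypoxia-responsive genes tested 7 rose and none fell (median 0.56). ADH1, the alcohol dehydrogenase of fermentation, went from 2, 2.96 and 1.74 to 28.5, 27.1 and 38.1 FPKM (3.32, SE 0.28, adjusted p = 1.90e-08), and SUS1, a sucrose synthase, from 5.09, 5.48 and 7.03 to 31.8, 35.5 and 33.3 FPKM (2.34, SE 0.25, adjusted p = 5.55e-07). Of 8 ethylene synthesis genes 4 rose and none fell, led by ACS7 from 3.27, 2.61 and 2.87 to 14.2, 17.2 and 16.6 FPKM (2.12, SE 0.35, adjusted p = 8.05e-05).

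Indole glucosinolates are defence compounds whose synthesis is switched on by MYB34, MYB51 and MYB122. MYB51, also named in the title of the series, was at 5.09, 3.38 and 4.78 FPKM in CT and 2.68, 4.55 and 4.40 FPKM under S+EL+HS. The groups overlapped and the difference was -0.16 (SE 0.23, adjusted p = 0.6005). MYB34 rose from 17.5, 15.4 and 20.6 to 37.3, 49.7 and 36.7 FPKM (1.16, SE 0.23, adjusted p = 4.56e-04). Of 12 indole genes 2 rose and 3 fell, a lower count that went to 1 without S+EL+HS replicate 1 or 3 or CT replicate 3 and to 5 without S+EL+HS replicate 2. Of the 12, 8 were lower than under S+EL, with 10.5% of all genes lower. The count was 3 without S+EL replicate 1 or S+EL+HS replicate 3, and 4 without S+EL replicate 2 or S+EL+HS replicate 1. Aliphatic glucosinolate genes fell in 2 of 13 cases, and in 0 without CT replicate 3 or S+EL+HS replicate 1. Of 11 JAZ genes tested 2 rose and 1 fell. Of 10 salicylic acid genes tested 2 rose and 3 fell, with 1 rising without CT or S+EL+HS replicate 2 and 1 falling without CT replicate 1 or S+EL+HS replicate 3.

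Whether the triple response equals the sum of its single parts was tested on the log2 scale, as the S+EL+HS difference minus those of S, EL and HS. It departed in 510 of 20592 genes (2.48%), 96 above the sum (0.466%) and 414 below it (2.01%), with a median of -0.178 over all genes. The count depended on single libraries, with 89 without CT replicate 2 and 1843 without HS replicate 1. It was 142 without CT replicate 1, 271 and 301 without replicate 1 of S+EL+HS and S, 220 and 248 without replicate 2 of S and HS, and 286 without HS replicate 3. All terms of the sum share the CT libraries. Below the sum stood 5 of 15 small heat shock protein, 6 of 12 HSP70, 5 of 10 HSP90 and ClpB, 2 of 8 co-chaperone, 1 of 19 heat shock factor and 9 of 14 unfolded protein response genes, the others of these lists did not pass, and none was called above it. BIP1 had means of 285 FPKM under EL, 656 FPKM under HS and 372 FPKM under S+EL+HS (departure -2.74, SE 0.37, adjusted p = 6.21e-04).

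The 4 genes farthest below the sum were AT3G07365 (-8.83), HSP17.6II (-7.76), HSP17.4 (-7.54) and AT1G07400 (-6.47). The single changes summed to 20.24 for AT3G07365 and 18.79 for HSP17.6II. Such sums predict more FPKM for a single gene than a whole library held, at most 822875 FPKM over the 6 libraries. A departure below the sum was therefore fixed in advance for both genes. How many others of the 414 genes meet this limit was not counted. HSP17.6II had means of 915 FPKM under EL, 2735 FPKM under HS and 5032 FPKM under S+EL+HS, with 1.42 FPKM in CT. The direction of this departure turns with the scale: added as FPKM, the single changes gave 3650.0 FPKM for HSP17.6II, less than its triple-stress level, and a triple-stress level above this FPKM sum was found in 19 of the 414 genes, AT3G07365 and AT1G07400 among them. Above the sum stood AT1G29090 (4.22, SE 0.67, adjusted p = 0.0022), with means of 10.3 FPKM in CT, 2.81 under S, 0.867 under EL and 0.128 under HS, and 0.0802 FPKM under S+EL+HS. MIOX4, an inositol oxygenase (3.43), had means of 14.8 FPKM in CT, 2.99 under S, 10.2 under EL, 1.76 under HS and 3.04 FPKM under S+EL+HS. A level cannot fall below 0 on this scale, which fixes the direction of a departure where the sum lies beyond the possible fall. For AT1G29090 the single changes summed to -7.55, while the largest possible fall from CT was -3.44, and for MIOX4 they summed to -5.39 against -3.94. AT1G21400 (2.91) and AT5G07985 (5.86) completed the 4, with a sum of -4.65 against -6.21 for AT1G21400 and -7.34 against -2.48 for AT5G07985. In all, 8 of the 96 genes above the sum had a sum beyond the possible fall, and AT5G07985 overlaps a gene on the opposite strand and was near 0 in most libraries.

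Wild-type seedlings under the same stress gave the comparison for the genotype. WT had 4894 genes higher (23.6%) and 3390 lower (16.3%) of 20744 tested. No gene of 21322 passed the limma test of the difference between the genotypes' responses, with 965 at an unadjusted p under 0.05 and a smallest adjusted p of 0.686. Leaving out WT CT replicate 2 gave 19 calls and leaving out WT CT replicate 3 gave 1. HSP18.2 rose by 10.08 (SE 0.90) in WT, LHCB2.3 fell by 2.82 (SE 0.24) and COR15A rose by 3.20 (SE 0.41). Of 272 list genes called in the libraries labelled rap2.3, 240 were called in the same direction in WT and 0 in the opposite one. The same share over all 8799 genes called was not computed, so this count has no background to be read against.

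The smallest p-values of that test belonged to AACT1, AT1G26300 and AT1G05203, all with an adjusted p of 0.686. AT1G26300, a BSD domain protein, was at 14.5, 14.2 and 13 FPKM in CT and 5.24, 6.71 and 6.48 FPKM under S+EL+HS in libraries labelled rap2.3, and ranged from 11.1 to 12.2 and from 9.45 to 11.1 FPKM in WT. AACT1, an anthocyanin acyltransferase, was at most 0.287 FPKM in the 6 libraries labelled rap2.3 and 1.33 to 2.71 FPKM in WT CT. For the genes of the title, MYB51 fell by 1.06 in WT (SE 0.29, adjusted p = 0.0057), where it was at 4.91 to 17.4 FPKM in CT and 3.63 to 4.61 FPKM under S+EL+HS, and the response difference was 0.90 (adjusted p = 1.0). SIG3, as SIGC, fell by 0.34 in WT (SE 0.09, adjusted p = 0.0062), and the response difference was 0.15 (adjusted p = 1.0). RAP2.3 differed by 0.35 in WT (adjusted p = 0.0732). For none of the 3 was a difference in response detectable at this replication.

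**Figure D5:**
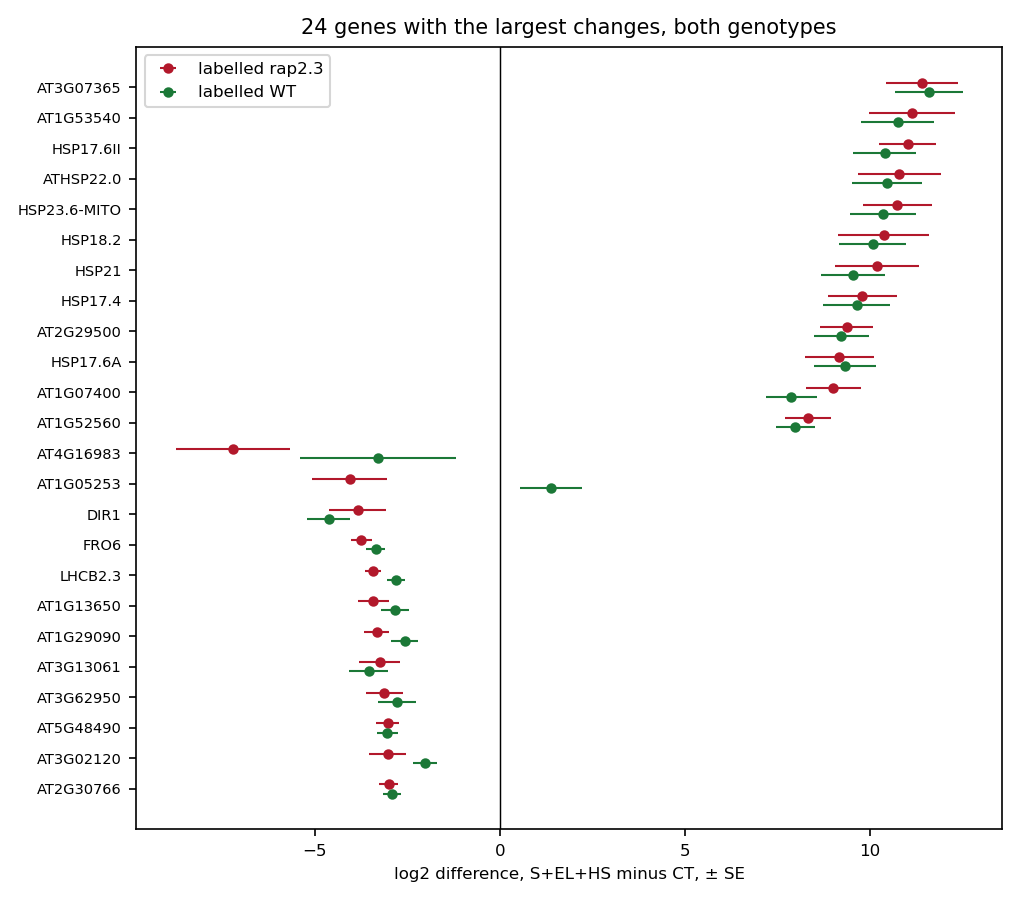
Log2 difference (log2(FPKM + 1) scale) between S+EL+HS and CT with its SE for the 24 genes with the largest changes in libraries labelled rap2.3 (red), beside the same genes in WT (green). The points of the genotypes lie close for most genes, with AT4G16983 and AT1G05253 the widest apart, both near 0 FPKM in some libraries and both overlapping a gene on the opposite strand.

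Markers of cell types in whole seedlings were followed because roots, leaves and their cells could change in share. Mesophyll markers fell in 2 of 3 cases (LHCB2.2 and CA1), or 1 after rescaling or without CT replicate 1 or 2 or S+EL+HS replicate 2 or 3, and summed to 14057 to 15002 FPKM in CT and 11052 to 12978 FPKM under S+EL+HS. Guard cell markers fell in 2 of 2, from 29.39 to 36.80 to 11.78 to 15.47 FPKM, and epidermis markers in 2 of 2, from 168 to 219 to 98.4 to 109 FPKM. Root markers rose in 2 of 5 (EXPA7 and SHV2), with sums of 1310 to 2070 and 1248 to 1565 FPKM. Xylem markers rose in 2 of 2 tested, with VND7 too low to test. Phloem markers split, and seed markers summed to at most 3.14 FPKM. MYB60, a guard cell factor, was at 14.8, 19.4 and 18.4 FPKM in CT, 5.68, 6.75 and 6.42 FPKM under S+EL+HS and 4.50 to 7 FPKM under S alone. What part cell shares had in the photosystem, expansin and growth results was not tested.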

How the data were processed

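FPKM per gene were made by the authors with HISAT2 and Cufflinks on TAIR10, per the submitters' processing notes, and were used as deposited; no tool versions, strand setting or read depth are given in the sources used here, so no counting error can be stated. Of 32824 loci, 2 stood on more than 1 row and were summed, and RefSeq named 32539. Genes reaching 1 FPKM in 3 or more libraries were tested on log2(FPKM + 1), which understates changes of low genes, with limma 3.58.1 (lmFit, eBayes with trend) in R 4.3.3, a mean per group over the 24 rap2.3 libraries, and all 48 for the genotype difference. The response of WT was fitted in the same way over the WT libraries alone. Benjamini-Hochberg adjusted p under 0.05 was called. P-values measure the spread between the 3 repeats within each group of 1 line, pooled over all 8 treatments (16 residual degrees of freedom). For the genotype difference the spread was pooled over the groups of both genotypes (32 residual degrees of freedom). Spread in groups that were not compared therefore enters them. The script recovered 187 of 200 genes changed by 1.5 (log2) in simulated data of 20082 genes, with 9 other calls. The simulated noise was independent, with the same spread in all groups and no effect of replicate number, and genes of low level were not changed. The EL and S+EL libraries differ from this, so the recovery and the other calls need not hold for the data.

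The members and gene lists were chosen with earlier results of these data known. Named genes are the 12 largest increases and decreases from CT, the 4 largest in each direction against EL+HS, S+HS and S+EL and of the departure from the sum, the 3 smallest p for the genotype difference, RAP2.3, MYB51 and SIG3, and, per list, the 2 largest changes in each direction or members whose role the text needs. The largest changes had to pass the test with a mean of at least 5 FPKM in the higher group and, except for the departure, no overlap between groups. Promoter windows came from RefSeq TAIR10.1. Python 3.11.15, pandas 2.3.3, numpy 2.4.6 and matplotlib 3.10.9 were used.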

Additional observations from a re-analysis of the deposited data

How the results depend on the processing

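Alternatives were a pseudocount of 0.1, no filter, rescaling by size factors, a replicate block, fitting only the compared groups, and leaving out each library. No called gene reversed among those followed, which were 284 of the 8799 called against CT. Other called genes were not followed. Counts over all genes against CT moved by less than 1.5 times, while counts of some lists moved by more. Rescaled, the split against EL+HS was 2539 higher and 2484 lower, against S+HS 647 higher and 269 lower, and 190 genes were above the sum; the share higher against S+EL went from 31.6% to 44.0%. With only the compared groups, 335 were lower than in S+HS, 186 departed from the sum (27 above, 159 below), and the genotype difference had 3 calls, 2 of them higher; the cause was not tested. Leaving out 1 library gave 3302 to 4714 higher than EL+HS; 394 to 929 called, 217 to 314 higher and 177 to 615 lower against S+HS; 1239 to 2872 called, 418 to 989 higher and 821 to 1897 lower against S+EL; 89 to 1843 departing from the sum, 8 to 385 above and 81 to 1458 below; and 0 to 19 called with 0 to 18 higher for the genotype difference. MYB51 against CT ranged from -0.308 to 0.029. The genotype difference of EBP (RAP2.3) was 0.044 rescaled and -0.141 to 0.093 with 1 library left out.

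Correlations of same-numbered CT and S+EL+HS deviations were 0.048, -0.058 and 0.01, and none of the groups compared had every correlation over 0.1, so the numbers were not taken to pair them. Between genotypes the EL libraries did, at 0.52, 0.103 and 0.414, and the HS libraries were at 0.357, 0.033 and 0.349, so replicate numbers share an effect in these groups, which enter the departure. The S+EL libraries were at 0.304, 0.036 and 0.215 and the S+HS libraries at 0.267, 0.171 and 0.082. These enter the comparisons with S+EL and S+HS. Within libraries labelled rap2.3, EL with HS was at -0.417, -0.084 and -0.224. The replicate block fits 1 shift per number over all treatments and cannot absorb opposite shifts in EL and HS. With the replicate block, 8633 genes were called against CT, 6098 against EL+HS, 833 against S+HS, 2930 against S+EL, 440 for the departure and 0 for the genotype difference. Among followed genes called against CT, 237 of 284 kept their call under every alternative; of those called against EL+HS 99 of 158 did, against S+HS 16 of 41, against S+EL 80 of 169, and for the departure 14 of 50.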
